A study of Mus musculus with 24 samples.

Results

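Levels of 10 genes of the circadian clock were followed in mouse brain microvessels after stroke or sham surgery. They are Arntl and Npas2, which activate clock transcription, Per1, Per2, Per3 and Ciart, which repress it, the nuclear receptors Nr1d1 and Nr1d2, and the output factors Dbp and Tef. The genes were taken by name from the 17270 genes of the deposited table, and each matched 1 row. The list itself was selected on earlier results for the same normalized counts, compared between the surgeries, hemispheres and time points. All between-group values of these 10 genes are therefore given as a description, without a p-value, and the counts of called members support nothing by themselves.

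RNA came from 24 libraries in 8 groups of 3, formed by surgery, hemisphere and time point. Male C57BL/6J mice of 10 to 12 weeks underwent transient middle cerebral artery occlusion (tMCAO) for 60 min with a coated filament, or a sham operation in which the filament was withdrawn at once. Brain microvessels were prepared 24 h or 7 days later from the ipsilateral hemisphere, on the side of the filament, and from the contralateral hemisphere. No gene was altered in any group, and warming, saline and adapted feeding were given in the care protocol. All mice were operated on under isoflurane and received the opioid buprenorphine before surgery and repeatedly afterwards, over a period that covered the 24 h time point and had ended by 7 days. The end of this treatment and the other differences between the time points cannot be told apart. Microvessels of 3 hemispheres were pooled into 1 library, so that 9 mice stood behind a group and the spread between libraries is a spread between pools. The mice lived in a light/dark cycle, and the clock time at which they were operated on or killed is not given in the sources used here. Differences between groups in this clock time and differences by surgery or by time after surgery cannot be told apart in these libraries.

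In the mammalian clock, ARNTL (also called BMAL1) pairs with CLOCK or NPAS2 and binds E-boxes, short DNA motifs in front of Per, Cry, Nr1d1, Dbp and other genes. PER and CRY proteins then shut this activation off, while NR1D1 and NR1D2 repress Arntl and Npas2 in competition with the ROR receptors, so that Arntl and Npas2 run in antiphase to Dbp and the Nr1d genes within each day. DBP and TEF act on D-boxes and pass the rhythm on to other genes, and Per1 is also a known direct target of the glucocorticoid receptor.

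Values are normalized counts, which are read counts that the authors divided by a size factor of each library and rounded. Their totals lay between 15924780 and 18787932 per library. The vessel markers were high in every library, with a summed level of 194104 to 290176 for 8 endothelial and 63225 to 154732 normalized counts for 7 mural markers. Markers of other cells were present too. Their sums were 18370 to 97711 for 5 oligodendrocyte, 649 to 74083 for 5 choroid plexus, 8734 to 43933 for 6 astrocyte and 937 to 20277 for 6 neuronal markers. These sums are not divided by gene length and serve to compare libraries. Contralateral library 1 at 7 days after tMCAO stood apart, with 20277 for the neuronal and 43933 for the astrocyte markers, against at most 11380 and 28990 in all other libraries. In bulk RNA, fewer cells of a type and less RNA per cell cannot be told apart. Below, a gene is called different when limma gave a Benjamini-Hochberg adjusted p under 0.05 over 15982 genes and a change of more than 1.5 times, and log2 differences are on the scale of log2 of the normalized count plus 1, with the standard error of the fit.

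All 10 members passed the filter on low values, the lowest being Npas2 with a mean of 109 normalized counts over the 24 libraries. Per kilobase of exon, the order of the mean levels was Nr1d1 with 1301, Dbp with 690, Tef with 433, Nr1d2 with 386, Per1 with 378, Ciart with 112, Per2 with 100.2, Arntl with 88.6, Per3 with 34.1 and Npas2 with 22.7 normalized counts. The span over the libraries was widest for Ciart, whose highest value was 13 times the lowest, and 10.5 times for Arntl. It was narrowest for Tef with 2.43 times and Nr1d2 with 2.52 times. Exons of Dbp share 18% of their bases with Sphk2 and those of Nr1d1 8.55% with Thra, both on the opposite strand, and those of Tef and Arntl share 2.45% with Gm17597 and 0.439% with Gm45355, again on the opposite strand. The library kit keeps the strand, but whether reads were counted by strand is not given in the sources used here, so these levels may hold reads of the neighbouring gene.

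Of the 10 genes, 9 had an entry in the RefSeq promoter windows of build GRCm38.p6, which run from 250 bases before to 50 after each start site. These letters are shown because they are the elements through which the factors measured here are known to act on each other. The E-box CACGTG was found in windows of Ciart, Per1 and Tef, the D-box TTATGTAA in that of Per3 and the ROR letters TAGGTCA or TGGGTCA in that of Arntl, all searched on both strands and without overlap between motifs. Over all 32851 windows the shares were 7.15% for the E-box, 0.938% for the D-box and 6.45% for the ROR letters. The Ciart window held 3 E-boxes, starting 116, 58 and 44 bases before the start site, and the Per3 window 2 D-boxes, starting 205 and 158 bases before it. A match is a run of letters and not a binding site, and binding was not measured. The stretches read 5′ to 3′ on the strand of the gene, with the motif in capitals:
Ciart, minus strand of chr3:95882255-95882356: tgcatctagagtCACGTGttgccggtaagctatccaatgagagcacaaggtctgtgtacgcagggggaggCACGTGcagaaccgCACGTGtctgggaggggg
Per3, minus strand of chr4:151044806-151044880: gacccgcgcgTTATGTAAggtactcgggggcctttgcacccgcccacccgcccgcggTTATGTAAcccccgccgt
Per1, plus strand of chr11:69098761-69098810: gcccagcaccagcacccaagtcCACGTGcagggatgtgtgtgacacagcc
Tef, plus strand of chr15:81802524-81802573: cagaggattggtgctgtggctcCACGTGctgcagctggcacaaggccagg
Arntl, plus strand of chr7:113207530-113207559: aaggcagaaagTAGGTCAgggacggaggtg

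The level of every member in every library is given below in the order of library numbers 1, 2 and 3. Arntl (chr7:113207465-113314126, plus strand, mm10) encodes the obligate partner of CLOCK and NPAS2. After sham surgery, its 24 h values were 468, 472 and 463 normalized counts in the contralateral and 496, 459 and 669 in the ipsilateral libraries. At 7 days these were 1343, 755 and 1672 contralaterally and 1233, 702 and 1449 ipsilaterally. Every sham library at 7 days thus lay above every sham library at 24 h, and the log2 difference was 1.35 ± 0.46 contralaterally and 1.01 ± 0.46 ipsilaterally, neither of them called. After tMCAO, 24 h values were 294, 569 and 159 contralaterally and 360, 444 and 197 ipsilaterally, and 7 day values were 1125, 377 and 470 contralaterally and 893, 344 and 590 ipsilaterally. The libraries of the tMCAO groups overlapped between the time points in both hemispheres. Arntl carries the ROR letters shown above.

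Npas2 (chr1:39194212-39363236, plus strand), which can stand in for CLOCK, had the lowest level of the 10 genes. Its sham values at 24 h were 101, 90 and 87 contralaterally and 106, 102 and 100 ipsilaterally, and at 7 days 193, 154 and 156 contralaterally and 240, 156 and 164 ipsilaterally. As with Arntl, all sham libraries at 7 days were above those at 24 h. After tMCAO the 24 h libraries held 58, 91 and 46 contralaterally and 34, 45 and 28 ipsilaterally, and those at 7 days 211, 112 and 97 contralaterally and 104, 56 and 84 ipsilaterally. The ipsilateral tMCAO libraries were below the sham ipsilateral ones without overlap at both time points, by 1.53 ± 0.28 on the log2 scale at 24 h and by 1.21 ± 0.28 at 7 days, and both differences were called.

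Per2 (chr1:91415982-91459324, minus strand), a repressor that forms complexes with CRY proteins, held 717, 571 and 678 normalized counts contralaterally and 803, 557 and 751 ipsilaterally at 24 h after sham surgery. At 7 days after sham surgery it held 174, 170 and 269 contralaterally and 189, 246 and 280 ipsilaterally, so the highest 7 day library of the sham mice was below their lowest 24 h library. The tMCAO libraries showed no such gap ipsilaterally: at 24 h they held 819, 899 and 1085 contralaterally and 595, 489 and 795 ipsilaterally, and at 7 days 639, 659 and 648 contralaterally and 598, 630 and 827 ipsilaterally. Ordered by mean, Per2 was highest in the contralateral tMCAO libraries at 24 h with 934 ± 136 (SD, n = 3), followed by sham ipsilateral 24 h, tMCAO ipsilateral 7 days, sham contralateral 24 h, tMCAO contralateral 7 days and tMCAO ipsilateral 24 h with means from 704 to 626. Neighbours among these last 5 groups overlapped. Both sham groups at 7 days came last, with 238 ± 46.0 ipsilaterally and 204 ± 56.0 contralaterally (SD, n = 3), and overlapped each other but none of the other 6 groups.

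Ciart (chr3:95878503-95882231, minus strand), which represses the CLOCK and ARNTL complex, shared its highest group, contralateral tMCAO at 24 h, and its lowest groups, both sham groups at 7 days, with Per2. After sham surgery it held 319, 224 and 387 contralaterally and 309, 163 and 333 ipsilaterally at 24 h, against 63, 56 and 78 contralaterally and 48, 88 and 59 ipsilaterally at 7 days. After tMCAO the 24 h libraries held 500, 421 and 622 contralaterally and 339, 265 and 395 ipsilaterally, and the 7 day libraries 123, 259 and 288 contralaterally and 133, 264 and 353 ipsilaterally. All 6 sham libraries at 7 days were below all 18 others.

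Per3 (chr4:151003652-151044665, minus strand), the PER family member with the lowest level per kilobase here, held 399, 380 and 346 contralaterally and 490, 381 and 329 ipsilaterally at 24 h after sham surgery, and 231, 185 and 159 contralaterally and 215, 282 and 137 ipsilaterally at 7 days. After tMCAO it held 348, 460 and 643 contralaterally and 232, 192 and 337 ipsilaterally at 24 h, and 266, 450 and 321 contralaterally and 227, 376 and 469 ipsilaterally at 7 days. Its sham values parted by time point without overlap in each hemisphere, and its 24 h tMCAO values parted by hemisphere.

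Per1 (chr11:69095217-69109960, plus strand) was the only member whose sham libraries overlapped between the time points in both hemispheres. At 24 h it held 2262, 1823 and 2692 contralaterally and 2519, 1723 and 2644 ipsilaterally after sham surgery, and 2701, 2930 and 2404 contralaterally and 2404, 2197 and 2153 ipsilaterally after tMCAO. At 7 days the sham libraries held 746, 1084 and 2436 contralaterally and 745, 1346 and 1889 ipsilaterally, and the tMCAO libraries 2330, 1836 and 2551 contralaterally and 2515, 1720 and 3386 ipsilaterally. Sham library 3 at 7 days was the highest of its group in both hemispheres, far above libraries 1 and 2 contralaterally and less so ipsilaterally.

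Nr1d1 (chr11:98767932-98775333, minus strand), which encodes the repressor REV-ERB alpha, held 4971, 5044 and 5461 contralaterally and 4677, 4672 and 5118 ipsilaterally at 24 h after sham surgery, and 3766, 4503 and 3090 contralaterally and 3771, 4358 and 3095 ipsilaterally at 7 days. After tMCAO it held 4656, 4614 and 5022 contralaterally and 3899, 3558 and 4413 ipsilaterally at 24 h, and 1782, 4861 and 2018 contralaterally and 1897, 4857 and 1936 ipsilaterally at 7 days. At 7 days after tMCAO, library 2 was thus near the 24 h level in both hemispheres, while libraries 1 and 3 were below every other library of the series. For this reason the 7 day tMCAO means had the largest spread, 2887 ± 1714 contralaterally and 2897 ± 1698 ipsilaterally (SD, n = 3).

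Nr1d2 (chr14:18204054-18239127, minus strand), for REV-ERB beta, was less uneven. Sham libraries held 2842, 2343 and 2383 contralaterally and 2665, 2311 and 2408 ipsilaterally at 24 h, and 1414, 1677 and 1378 contralaterally and 1259, 1684 and 1361 ipsilaterally at 7 days. The tMCAO libraries held 2856, 3178 and 3115 contralaterally and 1739, 1679 and 2042 ipsilaterally at 24 h, and 1600, 2456 and 2135 contralaterally and 1438, 2431 and 1656 ipsilaterally at 7 days. The highest ipsilateral tMCAO library at 24 h was below the lowest library of the other 3 groups of that time point.

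Dbp (chr7:45705088-45710203, plus strand), a D-box activator and a direct E-box target, held 2332, 2882 and 2681 contralaterally and 2481, 2396 and 2146 ipsilaterally at 24 h after sham surgery, and 1233, 1785 and 897 contralaterally and 1259, 2032 and 834 ipsilaterally at 7 days. After tMCAO it held 3315, 2066 and 4525 contralaterally and 1888, 1387 and 2948 ipsilaterally at 24 h, and 785, 2801 and 1334 contralaterally and 802, 3218 and 1547 ipsilaterally at 7 days. At 7 days library 2 was the highest in all 4 groups, and at 24 h after tMCAO library 2 was the lowest in both hemispheres.

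Tef (chr15:81802421-81826861, plus strand), the other D-box activator among the members, held 4189, 3491 and 3835 contralaterally and 3858, 3176 and 3735 ipsilaterally at 24 h after sham surgery, and 2200, 2785 and 2209 contralaterally and 2324, 3151 and 2254 ipsilaterally at 7 days. After tMCAO it held 4456, 3511 and 5339 contralaterally and 2674, 2207 and 3638 ipsilaterally at 24 h, and 3045, 3961 and 4690 contralaterally and 2851, 3777 and 4356 ipsilaterally at 7 days. Its lowest group was sham contralateral at 7 days with a mean of 2398 ± 335 and its highest tMCAO contralateral at 24 h with 4435 ± 914 (SD, n = 3).

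**Figure D1:**
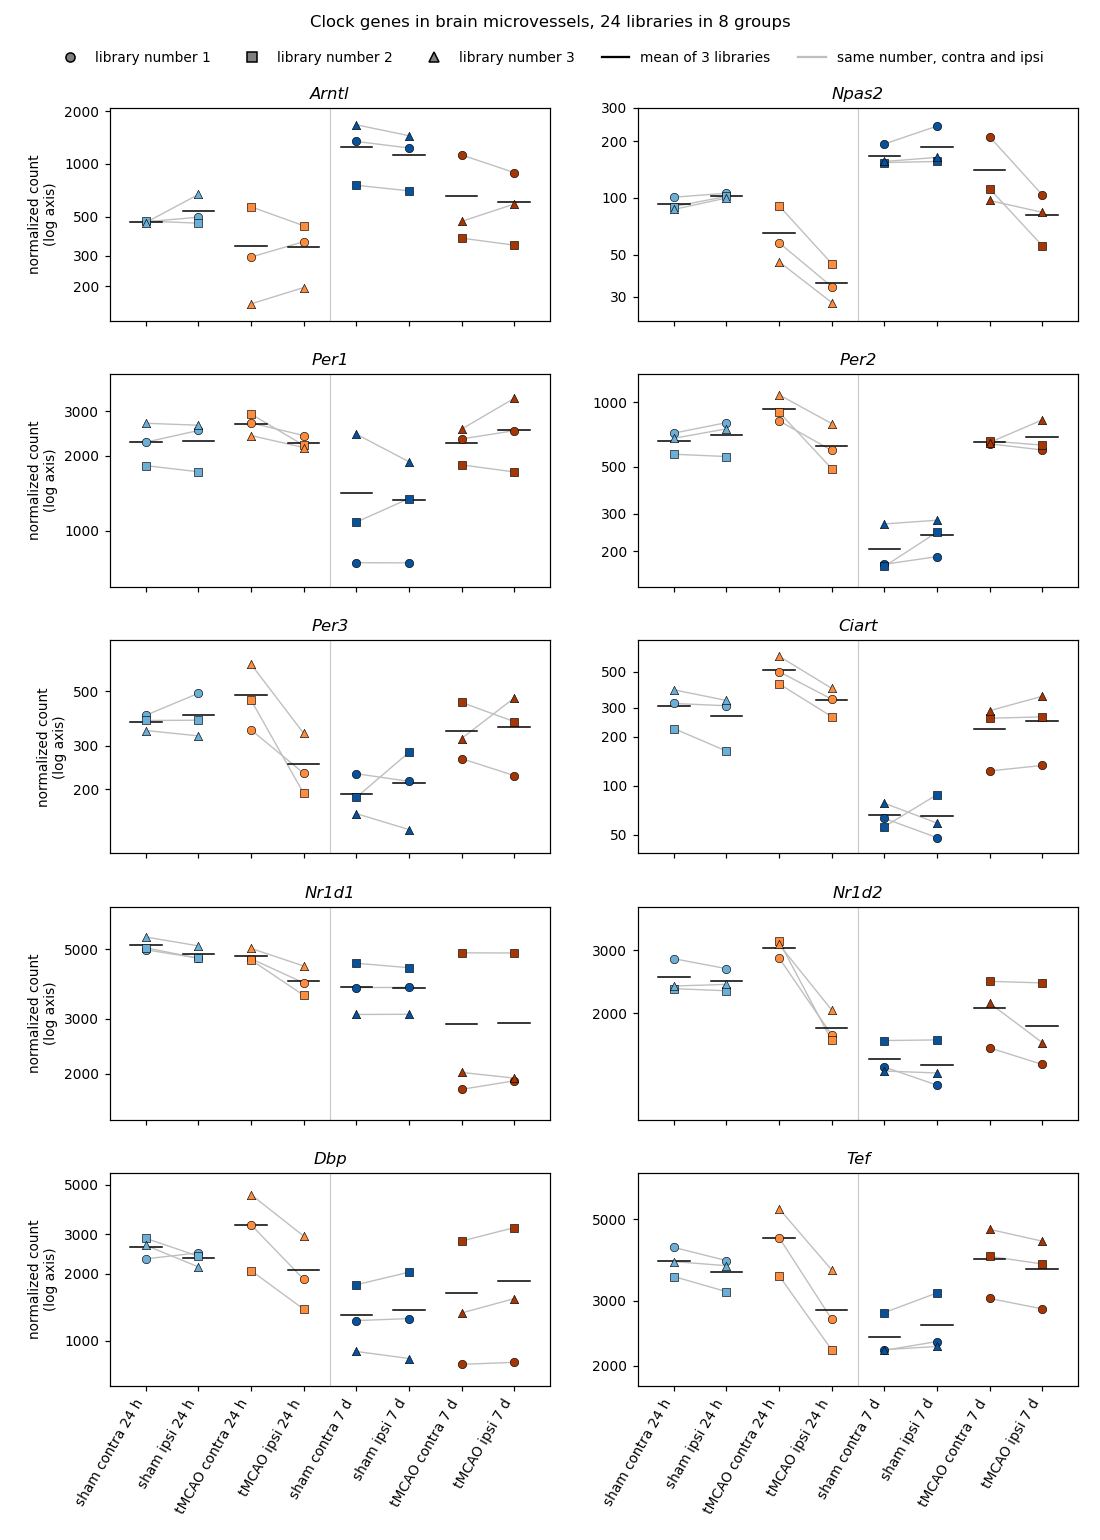
Normalized counts (log axis) of the 10 clock genes in 24 libraries, with the 8 groups along the horizontal axis. Symbols mark library numbers, black bars the mean of 3 libraries and grey lines join same-numbered libraries of the hemispheres. Arntl and Npas2 lay higher and Per2, Per3, Ciart, Nr1d1, Nr1d2, Dbp and Tef lower in the sham libraries at 7 days than at 24 h.

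The sham groups show how the clock genes differed between the time points without an occlusion. In both hemispheres, 7 of the 10 members were lower at 7 days than at 24 h without overlap of the libraries, namely Per2, Per3, Ciart, Nr1d1, Nr1d2, Dbp and Tef, and both activators were higher. Over all genes tested, 10.1% were lower and 11.9% higher without overlap ipsilaterally, and 8.63% were lower and 9% higher contralaterally. The differences were largest for Ciart, with -2.01 ± 0.36 ipsilaterally and -2.20 ± 0.36 contralaterally, and for Per2, with -1.56 ± 0.20 and -1.70 ± 0.20 on the log2 scale. Nr1d2 differed by -0.79 ± 0.17 and -0.76 ± 0.17, Per3 by -0.96 ± 0.30 and -0.98 ± 0.30, Dbp by -0.86 ± 0.46 and -1.06 ± 0.46 and Nr1d1 by -0.38 ± 0.31 and -0.46 ± 0.31. Ipsilaterally 3 members were called lower, Per2, Ciart and Nr1d2, beside 0.175% of all genes, and contralaterally Per2 and Ciart, beside 0.1% of all genes. The median log2 difference of the members was -0.82 ipsilaterally and -0.80 contralaterally, beside -0.0014 and -0.0065 over all genes. Ipsilaterally the count was 2 at most when any 1 library was left out. It fell to 1, Per2, without library 1 or 3 of the sham 24 h group or without library 1 of the sham 7 day group. The contralateral count fell to 1, again Per2, without library 1 or 3 at 24 h or without library 2 at 7 days.

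After tMCAO the time points were compared in the same way. Ipsilaterally, Per2 differed by 0.14 ± 0.20, Per3 by 0.47 ± 0.30, Ciart by -0.50 ± 0.36, Nr1d1 by -0.59 ± 0.31, Nr1d2 by -0.01 ± 0.17 and Tef by 0.38 ± 0.20 on the log2 scale between 7 days and 24 h. Npas2, with 1.15 ± 0.28, was the only member called, beside 12.2% of all genes. When ipsilateral library 2 at 7 days was left out, Nr1d1 was called lower as well, which made 2. Contralaterally 0 members and 0% of all genes were called by limma, while 2637 genes had an unadjusted p under 0.05. In that hemisphere 4 members did not overlap between the time points, Npas2 being higher and Per2, Ciart and Nr1d2 lower at 7 days, beside 16% of all genes. The largest contralateral differences were -1.27 ± 0.36 for Ciart, -1.13 ± 0.46 for Dbp and 1.07 ± 0.28 for Npas2, and Nr1d1 differed by -0.87 ± 0.31.

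**Figure D2:**
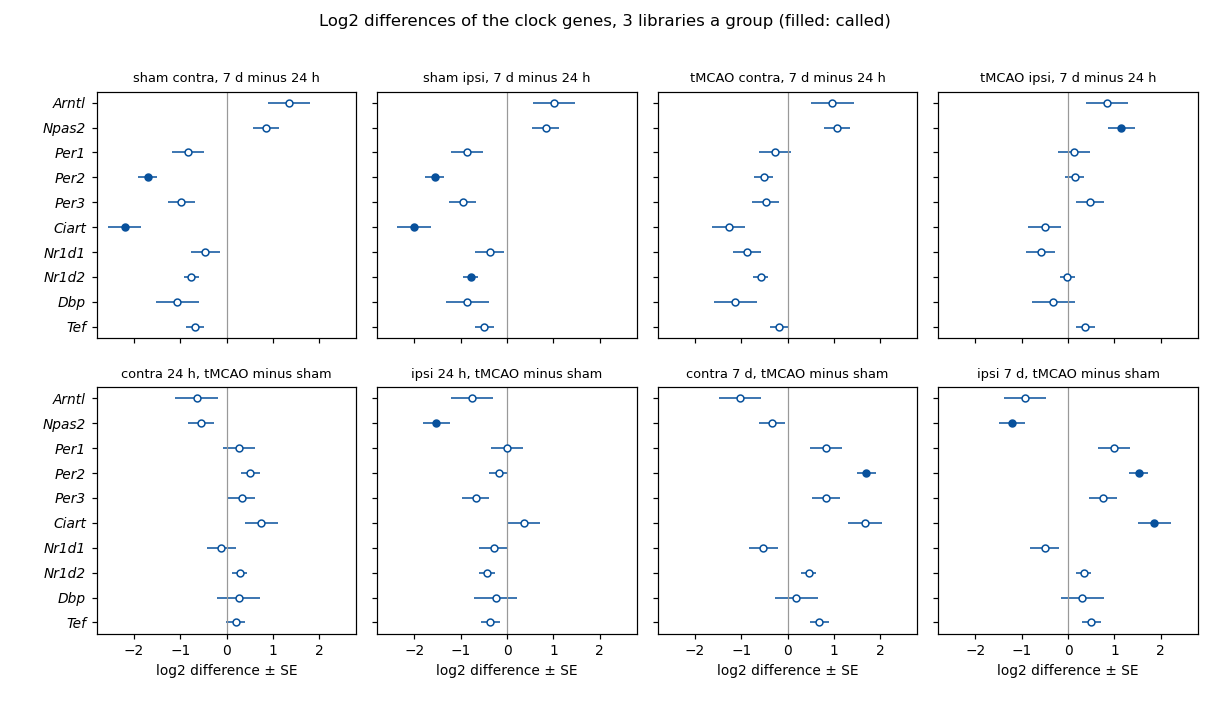
Log2 differences with standard errors of the 10 clock genes, 7 days minus 24 h in the upper row and tMCAO minus sham in the lower row, from the fit over all 24 libraries with 3 libraries per group. Filled points are called. In the sham panels of the upper row, 8 of 10 points lie below 0. In both 7 day tMCAO minus sham panels of the lower row, Per2 and Ciart lie farthest to the right.

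At 24 h the ipsilateral vessels after tMCAO were compared with sham ipsilateral vessels. Npas2 was the only member called, with a mean of 35.7 ± 8.62 against 103 ± 3.06 normalized counts (SD, n = 3), beside 18.3% of all genes. Arntl, Npas2, Nr1d1 and Nr1d2 were lower than sham without overlap of the libraries, and 24.1% of all genes were. Arntl differed by -0.76 ± 0.46, Per3 by -0.68 ± 0.30, Nr1d2 by -0.44 ± 0.17, Tef by -0.36 ± 0.20 and Nr1d1 by -0.29 ± 0.31, while Per1 stood at -0.0044 ± 0.35 and Ciart at 0.36 ± 0.36. The members had a median of -0.33, beside -0.02 over all genes. Leaving out ipsilateral tMCAO library 3 added Per3 to the calls, which made 2. In the same libraries the 6 neutrophil and monocyte markers summed to 3030 to 5655 against 327 to 1128 in sham, the endothelial markers to 194104 to 215533 against 235886 to 275337 and the mural markers to 63225 to 114750 against 117095 to 126689 normalized counts. All 6 neutrophil and monocyte markers were called higher. Neuronal markers summed to 2092 to 3135 against 5371 to 6221, with 4 of 6 called lower. Called lower were also 3 of 6 astrocyte, 2 of 5 oligodendrocyte and 2 of 5 microglial markers, while 0 of 5 choroid plexus markers were called. Of the vessel markers, 1 of 8 endothelial ones was called higher and 2 lower, and 1 of 7 mural ones lower. The part of these marker changes in the levels of the clock genes was not tested.

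In the contralateral hemisphere at 24 h, 0 members and 0% of all genes were called by limma. An unadjusted p under 0.05 was found for 405 genes. Per2, Ciart and Nr1d2 were higher after tMCAO than after sham surgery without overlap, by 0.51 ± 0.20, 0.75 ± 0.36 and 0.28 ± 0.17 on the log2 scale, beside 3.96% of all genes.

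At 7 days, 3 members were called in the ipsilateral tMCAO vessels against sham, beside 13.2% of all genes. Per2 was 2.87 times and Ciart 3.64 times the sham level, log2 differences of 1.52 ± 0.20 and 1.86 ± 0.36, and Npas2 was lower by the value given above. The same 3 genes were the members without overlap of the libraries, a property of 30% of all genes. Per1 differed by 0.98 ± 0.35, Per3 by 0.75 ± 0.30, Tef by 0.50 ± 0.20, Nr1d1 by -0.50 ± 0.31 and Arntl by -0.93 ± 0.46, none of them called. The median of the members was 0.42, beside 0.02 over all genes. Without ipsilateral tMCAO library 2, the library with 4857 normalized counts of Nr1d1, 5 members were called: Per1, Per2 and Ciart higher and Nr1d1 and Npas2 lower. In this comparison 6 of 6 neuronal markers were called lower, with sums of 937 to 1384 after tMCAO against 6700 to 11380 in sham. Of the choroid plexus markers 3 of 5 were called lower, with sums of 649 to 3112 against 15763 to 28947 normalized counts. Astrocyte markers were called lower in 2 of 6, oligodendrocyte markers in 1 of 5 and microglial markers in 1 of 5, and neutrophil and monocyte markers were called higher in 2 of 6. The endothelial and mural lists had 0 called markers, with mural sums of 79403 to 113228 against 130414 to 138177. The part of these shifts in the levels of the clock genes was not tested.

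In the contralateral hemisphere at 7 days Per2 was 3.24 times the sham level, a log2 difference of 1.69 ± 0.20, and was called in a comparison in which 5 genes in all, 0.0313% of those tested, were called. Ciart differed by 1.67 ± 0.36, Per3 by 0.83 ± 0.30, Per1 by 0.82 ± 0.35, Tef by 0.69 ± 0.20 and Arntl by -1.03 ± 0.46 without being called. Npas2, called ipsilaterally, differed by -0.34 ± 0.28 contralaterally and was not called. Its groups overlapped through tMCAO library 1 alone, the library with high neuronal and astrocyte markers. That library held 211 normalized counts, while libraries 2 and 3 held 112 and 97, below the sham libraries with 193, 154 and 156. Per2, Per3, Ciart and Tef were higher than sham without overlap, beside 5.04% of all genes. Leaving out any 1 library of these groups, among them the contralateral tMCAO library with high neuronal and astrocyte markers, kept the count at 1. With only the 2 compared groups in the fit, the count was 0. The comparisons of tMCAO with sham at 7 days and of sham at 7 days with 24 h share the sham 7 day libraries, so their values are not independent of each other.

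Whether the difference from sham changed between the time points was read from the interaction, that is the ipsilateral tMCAO minus sham difference at 7 days less that at 24 h. It was called for Per2 with 1.70 ± 0.29, Per3 with 1.43 ± 0.42 and Nr1d2 with 0.77 ± 0.24, all positive, beside 2.43% of all genes with a positive call. Per3 went from -0.68 ± 0.30 to 0.75 ± 0.30 and Nr1d2 from -0.44 ± 0.17 to 0.33 ± 0.17, while Per2 went from -0.18 ± 0.20 to 1.52 ± 0.20. The larger part of these interactions lay in the sham libraries. From 24 h to 7 days, ipsilateral sham levels of Per2, Per3 and Nr1d2 differed by -1.56 ± 0.20, -0.96 ± 0.30 and -0.79 ± 0.17. Ipsilateral tMCAO levels differed by 0.14 ± 0.20, 0.47 ± 0.30 and -0.01 ± 0.17. Ciart with 1.503 ± 0.51 and Tef with 0.87 ± 0.29 were not called. The count was 1, Per2, without sham ipsilateral library 1 at 24 h, tMCAO ipsilateral library 1 or 2 at 24 h, sham ipsilateral library 1 or 3 at 7 days, or tMCAO ipsilateral library 2 or 3 at 7 days. It was 2 without sham ipsilateral library 2 at 24 h, Per2 and Ciart, and without library 3 of that group, Per2 and Per3. It was 5, with Ciart and Tef added, without sham library 2 or tMCAO library 1 at 7 days.

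Hemispheres of the same surgery and time point were also compared, with the sham hemispheres as the background. Between these, 0 members were called at 24 h and at 7 days, and 0% of all genes at either time, with 367 and 359 genes at an unadjusted p under 0.05 in limma. No member had sham hemispheres without overlap, beside 11.5% of all genes at 24 h and 7% at 7 days. With so few members, these low shares leave this absence uninformative. At 24 h after tMCAO, 5 members were called lower in the ipsilateral hemisphere, beside 5.14% of all genes. These were Per3 with -0.92 ± 0.30, Npas2 with -0.82 ± 0.28, Nr1d2 with -0.75 ± 0.17, Tef with -0.65 ± 0.20 and Per2 with -0.60 ± 0.20 on the log2 scale. Dbp with -0.67 ± 0.46 and Ciart with -0.63 ± 0.36 were not called. Per2, Per3, Ciart, Nr1d1, Nr1d2 and Npas2 did not overlap between the hemispheres, as 19.1% of all genes did not in this direction. The count was 3, 2 and 2 without contralateral library 1, 2 and 3, and 1 and 2 without ipsilateral library 1 and 2, Nr1d2 being called in each of these. It was 4 at most when any 1 library was left out. Endothelial markers summed to 194104 to 215533 ipsilaterally against 260754 to 290176 contralaterally, and neuronal markers to 2092 to 3135 against 3926 to 7604. Called lower were 3 of 6 neuronal, 2 of 8 endothelial, 2 of 6 astrocyte, 1 of 7 mural and 1 of 5 microglial markers. Of the neutrophil and monocyte markers, 3 of 6 were called higher. No oligodendrocyte or choroid plexus marker was called. The part of these marker changes in the clock gene levels was not tested. At 7 days after tMCAO, 0 members were called, beside 13% of all genes. Npas2 had the largest difference at that time, -0.74 ± 0.28, and was called when contralateral library 3 was left out.

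Same-numbered libraries of the hemispheres were set side by side, though the sources used here do not state that they came from the same mice. At 24 h after tMCAO the ipsilateral library was lower at all 3 numbers in 9 of 10 members, all but Arntl, beside 32.6% of all genes. At 24 h after sham surgery it was lower at all numbers in Ciart, Nr1d1 and Tef, beside 19.5% of all genes, with mean differences of -0.24 ± 0.21, -0.10 ± 0.01 and -0.10 ± 0.05 (SD, n = 3). In Dbp the ipsilateral library held 57.0%, 67.1% and 65.1% of the contralateral level at numbers 1, 2 and 3, and in Nr1d2 60.9%, 52.8% and 65.6%. Ciart held 67.8%, 62.9% and 63.5%, the narrowest range of the 10 genes on this measure, with a mean log2 difference of -0.63 ± 0.06 (SD, n = 3). Tef differed by -0.65 ± 0.09, Dbp by -0.67 ± 0.13 and Arntl by 0.08 ± 0.38 (SD, n = 3). At 7 days the ipsilateral library was lower at all numbers in Nr1d2, Tef and Npas2, beside 23% of all genes, and higher in Ciart and Dbp, beside 24.3%.

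**Figure D3:**
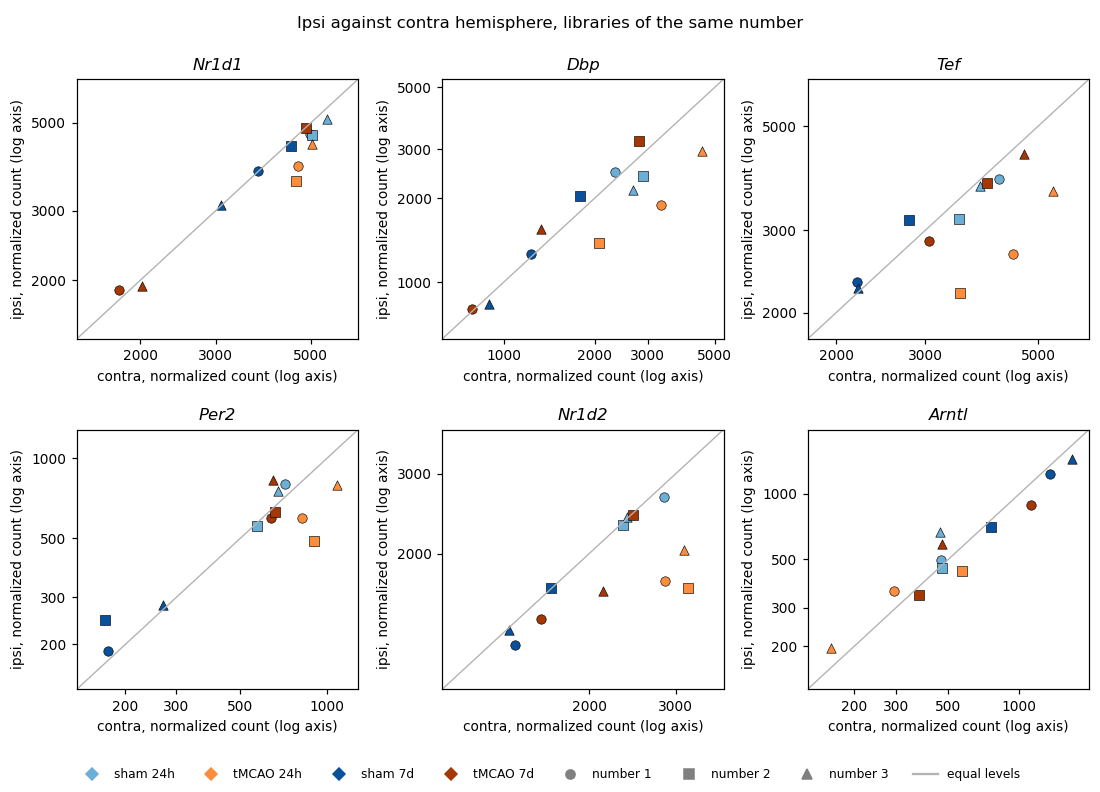
Ipsilateral against contralateral normalized counts (both axes log) of 6 clock genes, each point a pair of same-numbered libraries, with colour for surgery and time and symbol for library number. The tMCAO 24 h points lie below the line of equal levels in all shown genes but Arntl, and the tMCAO 7 day points of Nr1d1 lie along the line from 1782 to 4861 normalized counts.

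The spread of the members within groups was split into a part between library numbers and a part between hemispheres. Over the 4 combinations of surgery and time, the share of the variance within groups that lay between numbers was 0.989 for Nr1d1, 0.969 for Dbp, 0.969 for Tef, 0.887 for Arntl, 0.876 for Per1 and 0.551 for Per3. The median over the 10 members was 0.850, beside 0.337 over all genes. For Nr1d1 the standard deviation on the log2 scale was 0.42 for the mean of both hemispheres and 0.06 for the difference between them. These were 0.62 and 0.16 for Dbp, 0.24 and 0.22 for Per2 and 0.35 and 0.37 for Per3. A mean and a difference vary on unlike scales, so these values are not ranked against each other. The share between numbers was 0.641 for Per2, and that of Per3 was the lowest of the members. The libraries had the same order of levels in both hemispheres in 7 members in the sham 24 h groups, 5 in the sham 7 day groups, 6 in the tMCAO 24 h groups and 7 in the tMCAO 7 day groups. The shares of all genes with the same order were 27.2%, 32%, 28.8% and 22.7%.

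Dbp and Arntl, an output and an activator that peak at different times of day, were set against each other in each library, without division by length, so that the value serves only to compare libraries. The log2 level of Dbp minus that of Arntl was 1.68 to 2.61 over the 6 sham libraries at 24 h. At 7 days after sham surgery it was -0.12, 1.24 and -0.90 contralaterally and 0.03, 1.53 and -0.80 ipsilaterally, below the 24 h values in all libraries. After tMCAO it was 3.49, 1.86 and 4.82 contralaterally and 2.39, 1.64 and 3.90 ipsilaterally at 24 h. At 7 days it was -0.52, 2.89 and 1.503 contralaterally and -0.15, 3.22 and 1.39 ipsilaterally. The hemispheres ranked the library numbers alike in the sham 7 day and in both tMCAO sets, and not in the sham 24 h set. The widest spread over a group was 1.29 ± 1.71 (SD, n = 3), in the contralateral tMCAO libraries at 7 days.

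In the sham 7 day libraries Per1 was highest in library 3 of both hemispheres, which was also the highest in most glucocorticoid target genes. Fkbp5, a classical glucocorticoid-induced gene, held 935, 458 and 6257 normalized counts contralaterally and 1173, 553 and 5814 ipsilaterally, beside 746, 1084 and 2436 and 745, 1346 and 1889 for Per1. Of 12 listed glucocorticoid-related genes, 11 had their highest level in library 3 in both hemispheres, as did all 9 listed immediate early genes. The share of all genes that did so was not counted. Tsc22d3, another such target, held 4163, 5624 and 13957 contralaterally. At 24 h after sham surgery, 10 of the 12 glucocorticoid-related genes were highest in library 3 in both hemispheres, and at 24 h after tMCAO 11 were highest in library 2. Per1 was highest in library 3 of both hemispheres at 24 h after sham surgery. At 24 h after tMCAO it was highest in library 2 contralaterally and in library 1 ipsilaterally. At 7 days after tMCAO, Fkbp5 held 5324, 4283 and 3042 contralaterally and 7521, 4941 and 4135 ipsilaterally, all above libraries 1 and 2 of the sham groups. In that set Per1 was again highest in library 3 of both hemispheres, where Fkbp5 was lowest, and 2 of the 12 glucocorticoid-related genes were highest in library 3. The part of these genes in the level of Per1 was not tested. Of the 12 genes, 2 were called higher in ipsilateral tMCAO vessels at 7 days, Klf9 by 0.61 ± 0.19 (adjusted p = 0.0342) and Ddit4 by 1.38 ± 0.36 (adjusted p = 0.0116) in limma, beside 3.27% of all genes called higher. Klf9 was not called without ipsilateral sham library 1 or tMCAO library 1 or 3 at 7 days, with an adjusted p of 0.204, 0.069 and 0.121, nor with only the compared groups in the fit, with 0.0799, and Ddit4 not without sham or tMCAO library 1, with 0.0666 and 0.0769. Fkbp5 had the largest ipsilateral difference from sham at 7 days, 1.78 ± 0.78 with an adjusted p of 0.13 in limma, and Nr3c1, the glucocorticoid receptor itself, the lowest, -0.29 ± 0.18 with an adjusted p of 0.294.

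**Figure D4:**
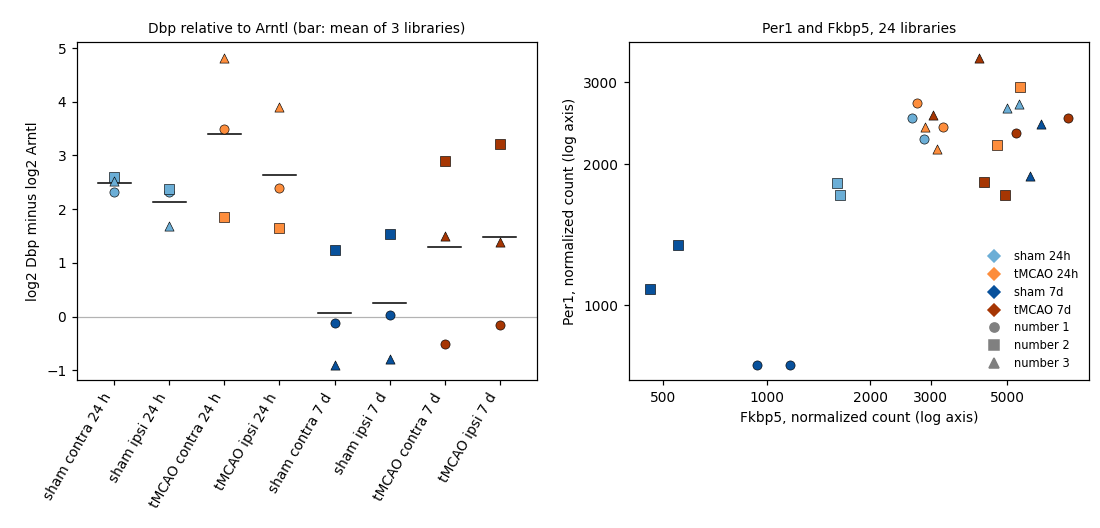
Left, log2 Dbp minus log2 Arntl in each library by group, with the mean of 3 libraries as a bar. Right, normalized counts of Per1 against Fkbp5 in the 24 libraries (both axes log). On the left all sham libraries at 7 days lie below those at 24 h, and on the right sham libraries 1 and 2 at 7 days lie at the low end of both genes.

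The genes whose pattern over the 24 libraries was most like that of 3 members were found among 12149 genes with a mean of at least 50 normalized counts, by Pearson correlation of log2 values. The libraries share groups and numbers, so r is a description. Dbp was most like Paox with r = 0.84, Stard8 with 0.83, Kdm1b and Tubgcp5 with 0.82 each and 5930430L01Rik with 0.79. Per1 was most like Ptger4 and Pim3 with 0.89 each, and Txnip, Angptl4 and Hipk1 with 0.86 each. Arntl was most like Bok with 0.91, Pfkp with 0.86, Cx3cl1 with 0.84 and Vps18 and Unc119b with 0.82 each.

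Other clock genes, listed by their known roles with earlier results known, were tested with the limma adjusted p over all genes. Of 19 such genes, 0 were called higher and 2 lower in ipsilateral tMCAO vessels against sham at 24 h, and 0 higher and 1 lower at 7 days. Over all genes, 10% were called higher and 8.23% lower at 24 h, and 3.27% higher and 9.95% lower at 7 days, so these counts were near the background. At 24 h Rora, which encodes a receptor that activates Arntl against the REV-ERB proteins, held 512, 453 and 500 normalized counts after tMCAO and 1014, 836 and 809 after sham surgery. The difference of -0.85 ± 0.11 had an adjusted p of 1.23e-05 in limma. Hlf, the third D-box activator beside Dbp and Tef, held 830, 542 and 1299 against 1869, 1779 and 1373, a difference of -0.99 ± 0.25 with an adjusted p of 0.00569 in limma. Both were also lower in the ipsilateral than in the contralateral hemisphere at 24 h after tMCAO, by 0.92 ± 0.11 (adjusted p = 7.99e-06, limma) and 1.23 ± 0.25 (adjusted p = 0.00129, limma) on the log2 scale. At 7 days neither was called against sham, with -0.15 ± 0.11 (adjusted p = 0.379) for Rora and -0.35 ± 0.25 (adjusted p = 0.381) for Hlf in limma, and the change of the Rora difference between the time points was 0.70 ± 0.15 with an adjusted p of 0.00629.

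Rorb, a family member known from neurons, was called at 7 days. It held 5, 9 and 13 normalized counts in ipsilateral tMCAO libraries and 43, 41 and 81 in sham, a difference of -2.50 ± 0.40 with an adjusted p of 0.000173 in limma. In the same libraries the 6 neuronal markers summed to 937 to 1384 after tMCAO and to 6700 to 11380 after sham surgery. The part of neuronal RNA in the Rorb level was not tested.

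None of the partners and stabilisers of the feedback loop described next was called in the ipsilateral comparisons with sham. Clock, the main partner of Arntl, held 1074 to 1178 normalized counts in ipsilateral tMCAO and 1294 to 1580 in sham libraries at 24 h, a difference of -0.33 ± 0.12 that was within the limit of 1.5 times although its adjusted p was 0.0364 in limma. At 7 days it differed by -0.15 ± 0.12 with an adjusted p of 0.422. Cry1 differed by 0.11 ± 0.25 at 24 h and 0.41 ± 0.25 at 7 days and Cry2 by -0.29 ± 0.14 and -0.0044 ± 0.14, with adjusted p from 0.125 to 0.988 in limma. Bhlhe40 and Bhlhe41, which compete for E-boxes, differed by 0.18 ± 0.41 and -0.38 ± 0.26 at 24 h and by -0.11 ± 0.41 and -0.43 ± 0.26 at 7 days, with adjusted p of 0.267 or more. Nfil3, a repressor at D-boxes, differed by 0.60 ± 0.67 and -0.40 ± 0.67, with adjusted p of 0.524 and 0.75. Between sham time points none of the 19 genes was called in either hemisphere, and Nfil3 and Bhlhe41 had the largest contralateral differences, 1.29 ± 0.67 (adjusted p = 0.501) and -0.79 ± 0.26 (adjusted p = 0.226).

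**Figure D5:**
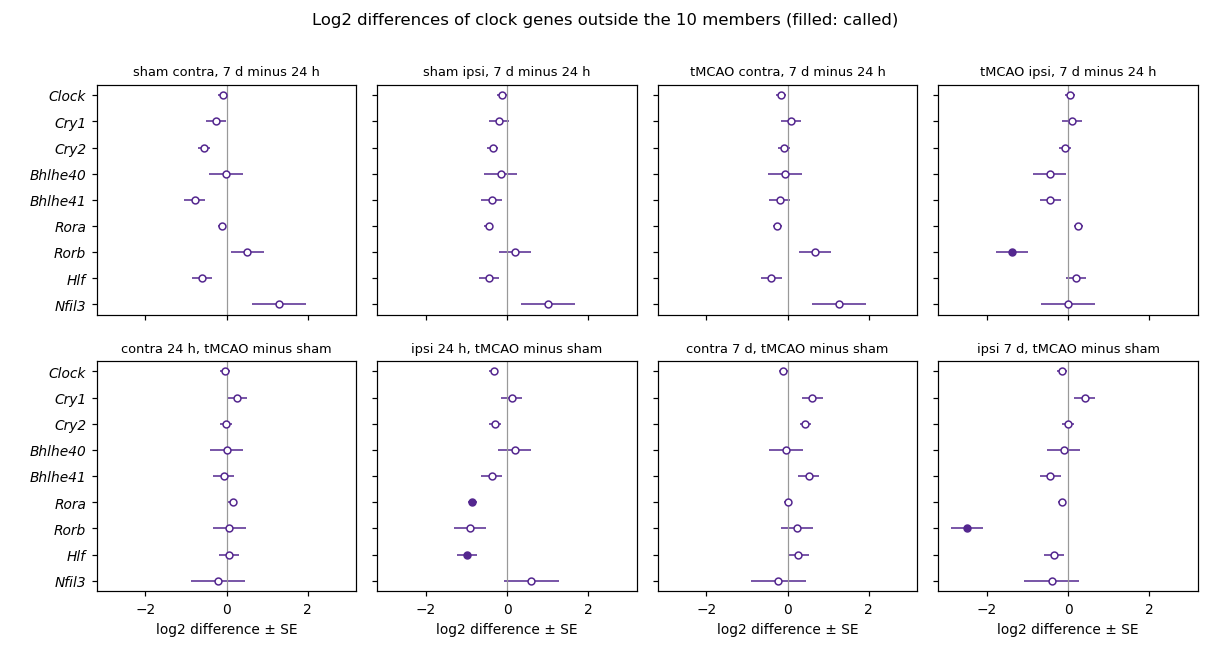
Log2 differences with standard errors of 9 clock genes outside the 10 members, in the same panels as for the members, with 3 libraries per group. Filled points are called. Rora and Hlf are filled at 24 h and Rorb at 7 days in the ipsilateral tMCAO against sham panels.

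Of 9 listed genes known as clock outputs, Tspan4 was called higher in ipsilateral tMCAO vessels against sham at 24 h, with 4460 ± 383 against 2872 ± 223 normalized counts (SD, n = 3), a log2 difference of 0.63 ± 0.15 and an adjusted p of 0.00346 in limma. This was 1 of 9, beside 10% of all genes called higher. Without sham ipsilateral library 1 or tMCAO ipsilateral library 3 at 24 h this difference came within the limit of 1.5 times, at 0.58 in both cases, and it did so with median centring as well, at 0.57. At 7 days it was higher again by 0.65 ± 0.15 (adjusted p = 0.00394), together with Klf10 by 0.64 ± 0.20 (adjusted p = 0.0291), beside 3.27% of all genes. Klf10 was not called without sham ipsilateral library 1 or 2 or tMCAO ipsilateral library 1 or 2 at 7 days, with an adjusted p from 0.0581 to 0.161, nor with only the compared groups in the fit, with 0.097. Id2 had the lowest difference of these outputs at 7 days, -0.45 ± 0.15 with an adjusted p of 0.0397 in limma and within the limit of 1.5 times. In the contralateral comparison at 7 days 1 output was called, beside 0.025% of all genes called higher. It was Usp2, with 447 ± 123 against 201 ± 22.3 normalized counts (SD, n = 3), a difference of 1.12 ± 0.20 and an adjusted p of 0.0429 in limma. The contralateral tMCAO library 1 with high neuronal and astrocyte markers had the highest Usp2 level of these 6 libraries, 585 against 351 and 405 in libraries 2 and 3. Without it the difference was 0.91 ± 0.20 with an adjusted p of 0.257. Usp2 was also not called when any 1 sham library or tMCAO library 3 was left out, with an adjusted p from 0.0535 to 0.226 in limma, and with only the compared groups in the fit its adjusted p was 0.807.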

How the data were processed

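The samples, groups and comparisons are those given in the report. The authors aligned the reads to mm10 (GRCm38), counted them per gene and normalized them with DESeq2, and the deposited values are a score: read counts that the authors divided by a size factor and rounded, not whole reads. The submitters' processing notes name STAR 2.5.2b, featureCounts 1.5.1 and DESeq2 1.6.2. The authors state that samples judged outliers were left out, which kept 3 per group. The values are relative to the 24 libraries together, so levels of the members were ranked only per kilobase of exon, from the GENCODE M21 annotation. Marker sums and the difference between Dbp and Arntl were not scaled by length and were compared only between libraries.

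Log2 values after adding 1 were fitted with limma 3.58.1 in R 4.3.3, with a mean-variance trend and all 24 libraries in 1 fit, over the 15982 genes with a mean above 5. Adjusted p-values are Benjamini-Hochberg values over these genes, and the limit on the log2 change was 0.585. The fit was also run on simulated counts, with independent libraries and the same setting of spread for every gene. That run cannot test the fit where hemispheres resemble each other or where genes differ in spread between pools. Replicates within a group are separate pools of hemispheres, so p-values measure the spread between pools. The fit took all 24 libraries as independent, although same-numbered libraries of the hemispheres resembled each other. Standard errors between hemispheres therefore also hold spread that such libraries share. In comparisons of surgery or time, the spread rests on fewer independent libraries than the fit counts, so p-values there may be too small. The main fit held no pairing. As an alternative, sham libraries of the same number were treated as paired between the hemispheres. The correlation of their residuals over all genes was above 0.1 in every pair (0.145 to 0.467). Between sham hemispheres 0 members were called with or without that pairing. The named genes were all members, 9 fixed clock genes, other clock genes that were called or had the largest increase or decrease in ipsilateral tMCAO against sham, for the glucocorticoid and immediate early lists those with the largest increase and decrease, and the 5 genes most like Dbp, Per1 and Arntl. Klf9, Ddit4 and Tsc22d3 fall outside this rule and were picked with their values in view. The members and all lists were chosen with earlier results of these data known. Alternatives were a pseudocount of 0.5, no filter, a minimum mean of 20, median centring, only the groups compared, no fold limit, a replicate block and each library left out. Figures were drawn with matplotlib 3.10.9 in Python 3.11.15. Data of the study other than RNA sequencing were not used here.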

Additional observations from a re-analysis of the deposited data

Results flagged for a closer look

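Of the clock genes, Per3 and Nr1d2 differed from sham in opposite directions at the time points in the ipsilateral tMCAO vessels. Per3 went from -0.68 ± 0.30 at 24 h to 0.75 ± 0.30 at 7 days on the log2 scale, a gap of 1.43, and Nr1d2 from -0.44 ± 0.17 to 0.33 ± 0.17, a gap of 0.77. None of these 4 differences was called, and the Per3 libraries overlapped those of sham at both times. The larger part of each gap lay in the sham libraries. From 24 h to 7 days Per3 and Nr1d2 differed by -0.96 ± 0.30 and -0.79 ± 0.17 in ipsilateral sham vessels. In ipsilateral tMCAO vessels they differed by 0.47 ± 0.30 and -0.01 ± 0.17. The gap itself was called for both genes and for neither after leaving out each of 8 single libraries of the 12. In a further one, without sham library 3 at 24 h, Nr1d2 was not called. As both genes were chosen with results known, no p is given and the difference was not tested independently of that choice. Among genes outside the members, the limma interaction passed the threshold for Rora with 0.70 (adjusted p = 0.00629), where the difference went from -0.85 to -0.15. It did so for Klf9, a clock-controlled and glucocorticoid-induced factor, with 1.20 (adjusted p = 0.00871), from -0.59 to 0.61. The Klf9 difference at 24 h was not called without sham ipsilateral library 1 or 3 or tMCAO ipsilateral library 2, with an adjusted p of 0.0685, 0.126 and 0.13. The interaction also passed for Arc, a neuronal immediate early gene, with -2.88 (adjusted p = 0.0242), from -0.92 to -3.80. Arc did not pass in 6 of 19 alternatives: with only the compared groups, and without sham library 1, tMCAO library 1 or tMCAO library 2 at 24 h, or sham library 3 or tMCAO library 1 at 7 days, with an adjusted p from 0.0547 to 0.0768. In the ipsilateral tMCAO libraries at 7 days, in which Arc was lowest, the 6 neuronal markers summed to 937 to 1384 normalized counts, against 6700 to 11380 in sham. The part of neuronal RNA in the Arc level was not tested.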

How the results depend on the processing

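No member that was called in the main or the alternative fit reversed its direction under any alternative run. Changes of sign in members called in neither fit were not counted. The pseudocount of 0.5, both other filters, median centring and the absence of a fold limit left every count of called members within 1.5 times. With only the compared groups in the fit, the count went from 1 to 0 for contralateral tMCAO against sham at 7 days, from 5 to 2 between tMCAO hemispheres at 24 h, and from 3 to 1 both for sham ipsilateral 7 days against 24 h and for the interaction. This fit has fewer libraries. With 1 library left out, the counts ranged from 1 to 2 in the ipsilateral comparison with sham at 24 h, 3 to 5 at 7 days, 1 to 4 between tMCAO hemispheres at 24 h, 0 to 1 at 7 days, 1 to 2 for sham ipsilateral and 1 to 2 for sham contralateral 7 days against 24 h, 1 to 2 for tMCAO ipsilateral 7 days against 24 h and 1 to 5 for the interaction. The replicate block gave 2 in the contralateral comparison with sham at 7 days (Per2 and Ciart) and 1 between tMCAO hemispheres at 7 days (Npas2). Outside the hemisphere comparisons this block tied equal numbers of different mice, which the design does not join. In that contralateral comparison same-numbered libraries had residual correlations of -0.173 to 0.047, with 0 of 3 best with their own number. That count of 2 therefore carries no weight. Between tMCAO hemispheres at 24 h it gave 7 in place of 5, with Ciart and Dbp added. Pairing was checked by residual correlation over all genes: tMCAO libraries of 1 number had 0.0593 to 0.36 between hemispheres, and all 12 hemisphere pairs correlated best with their own number, a hint from the data and not from the design. Centring moved the median of all genes by 0.105 for tMCAO ipsilateral 7 days against 24 h and by 0.104 for the interaction, and by less than 0.1 elsewhere. Depth in reads is not given by the normalized counts, and 3 pools per group limit the precision.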
